A study of Mus musculus with 2 samples.

Results

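The 10 genes described here are Bcl2l1 and its relatives in the Bcl2 family, the proteins that decide whether the outer membrane of the mitochondrion stays closed in a cell under stress. They were taken by symbol from the mm9 gene models (GENCODE vM1) and are 10 of 37310 annotated genes. All 10 matched, and all 10 had reads in both libraries. Bcl2l1, Bcl2, Bcl2l2 and Mcl1 are the anti-apoptotic members, Bax, Bak1 and Bok are the effectors, and Bcl2l11, Bbc3 and Bid carry only the BH3 motif.

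The data are 2 RNA-Seq libraries, each from the polyA+ RNA of 1 whole F1 brain at E17.5, late in embryonic development. BxC denotes an F1 from a C57BL/6J mother and a CastEi/J father, and CxB the reciprocal F1 from a CastEi/J mother and a C57BL/6J father. No treatment, deletion or transgene is named for either, the libraries were not pooled, and the study names the CxB brain as male without saying which of its BxC brains gave the BxC library. The design asks which parental allele is read in such hybrids. The deposited alignments list positions and no bases, so the levels below are sums over both alleles and the alleles were not separated.

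In outline, effectors open pores in the outer mitochondrial membrane, cytochrome c leaves through them, and Apaf1 and caspase 9 then activate the caspases that dismantle the cell. Anti-apoptotic members bind effectors and BH3-only proteins and hold them in check, and BH3-only proteins relieve that hold or activate effectors directly. The developing brain removes many young neurons and progenitors in this way, and Bcl2l1 is known as the anti-apoptotic member on which newborn neurons depend.

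The BxC library held 128944754 reads on 36575945 distinct positions and the CxB library 109719746 reads on 31155725. These totals are sums of a whole number on each deposited line, read here as the number of identical reads. They lie above the mean read number that the study gives for its libraries, and the meaning of the column is not named, so some results are also given by distinct positions. Reads across a splice junction made up 6.47% of BxC and 6.20% of CxB. The strand did not follow the genes (43.6% and 43.1% of exon reads on the sense strand), although the protocol kept strand, so both strands were counted. With 1 library per cross there is no spread between replicates and no test between the crosses. All intervals are 95% intervals that cover counting error only, and identical reads need not be separate molecules. Of 6 listed neuron markers 5 matched a gene, and their summed level was 1440 in BxC and 1326 in CxB, in RPKM (exon reads per kb of exon per 1000000 reads of the library). Radial glia markers summed to 291 and 300 on the same scale. Liver markers summed to 0.275 and 0.767, with Alb at 0 reads in BxC and 45 in CxB. Lists for astrocytes, the oligodendrocyte lineage, microglia and endothelium summed to between 7.36 and 38.5, and skeletal muscle to 2.96 and 2.78. In whole tissue, fewer cells of a type and less RNA per cell cannot be told apart.

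Bcl2l1 makes a long protein, Bcl-xL, which protects cells, and a short protein, Bcl-xS, which is known to promote death. The short form uses a splice donor inside the second exon, 189 bases (63 codons) before the usual end of that exon. The donors and the joins they make are printed because the count of long and short reads rests on them. The first 2 lines hold 12 bases before each donor and 18 after it, with the GT that starts the intron in capitals, at chr2:152655145-152655174 and chr2:152655334-152655363 of mm9, minus strand. The other 2 hold 15 bases on each side of the join, with exon 3 in capitals.

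Bcl2l1 long donor: aacggcggctggGTaagaaccacgcccctt

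Bcl2l1 short donor: agctttgagcagGTagtgaatgaactcttt

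Bcl2l1 long junction: gagaacggcggctggGACACTTTTGTGGAT

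Bcl2l1 short junction: cagagctttgagcagGACACTTTTGTGGAT

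Both donors thus carry a GT on the reference genome, and both joins lead to the same acceptor. The long join runs from base 152655163 to base 152608018 of chromosome 2 across an intron of 47144 bases. It had 205 reads in BxC, at 55 distinct positions, and 108 reads in CxB, at 36 positions. The short join, from base 152655352, had 0 reads in both libraries, and no junction read of any kind left from inside the second exon. The long share was therefore 100% in each library. Taken to allow 3 reads, a count of 0 leaves room for a short share of up to 1.46% in BxC and 2.78% in CxB. The short donor is not in the annotation used here. The paper states that overlapping isoforms were collapsed into 1 gene model by the union of their bases. How a donor inside a longer exon was then treated is not said. The authors' alignment searched joins between exons of their gene models, and whether those held the short donor is not known. This limits the count to reads that could be placed, since the limits above hold only if the short join was among the sequences searched. Across all protein-coding genes, annotated introns with an end inside another exon were seen in 54.0% (BxC) and 52.2% (CxB) of 40162 cases, against 63.9% and 61.9% of 187856 other introns. All of these introns are annotated, so the shares cannot show whether the unannotated short join was searched.

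Reads that ran straight on past the short donor, with at least 8 bases on each side, numbered 51 in BxC and 34 in CxB. Those that ran past the long donor into the intron numbered 18 and 13, and 0 ran in from the intron at the acceptor.

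The depth along the mRNA was uneven. The 189 bases found only in the long form had a mean depth of 763 reads in BxC and 597 in CxB. The 189 bases before them had 230 and 202, and the 138 coding bases of exon 3 373 and 283. A higher depth in the long-only stretch than before it (ratio 3.32 in BxC and 2.95 in CxB) cannot be read as an isoform share, because 1 pile of reads sits in that stretch. The deepest base of the gene, 152655251, lay there in both libraries, under 3022 reads in BxC and 2349 in CxB. Of these, 1674 and 1262 began and ended at the same position. All reads over this base were 20.8% and 19.8% of the exon reads of Bcl2l1.

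**Figure D1:**
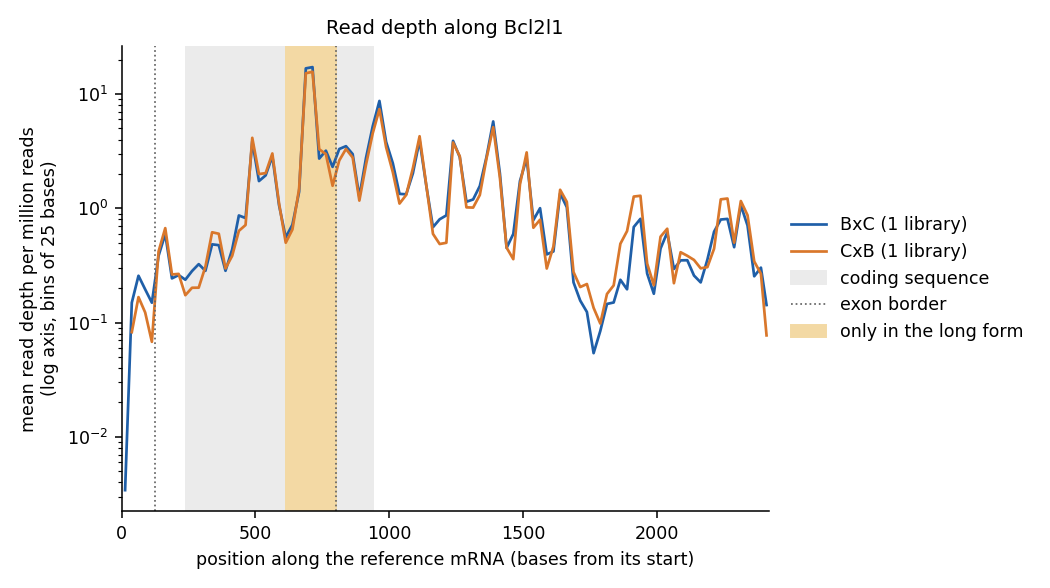
Mean read depth per 1000000 reads (log axis) in bins of 25 bases along the 2417 bases of the reference mRNA Bcl2l1-001, 1 line per library; a bin of 0 is not drawn, dotted lines are exon borders, grey marks the coding sequence and yellow the 189 bases found only in the long form. The highest peak of each line lies in the yellow stretch.

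At the start of the gene, annotated first exons join the second exon at base 152655838. The first exon of the reference transcript, which ends at base 152657339, gave 3 reads in BxC and 2 in CxB. A nearer first exon, which ends at base 152656122, gave 8 and 14. The nearer exon had more reads in both libraries, at counts of 14 or fewer. The reference 5' UTR as a whole had a mean depth of 32.0 in BxC and 24.9 in CxB, against 353 and 281 over coding bases. Of 9 annotated introns of Bcl2l1, 3 had reads in both libraries.

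Across the family, Bax had the highest level over all annotated exons and Bcl2l11 the lowest, and the order of the 10 members was the same in both libraries. The levels in this paragraph and the next ones are in RPKM, as defined above. Bax stood at 33.5 in BxC and 35.8 in CxB, Bbc3 at 32.0 and 32.4, and Bcl2l1 at 23.8 and 22.8. Mcl1 (14.0 and 14.2), Bak1 (12.8 and 12.5), Bok (10.8 and 11.5) and Bcl2l2 (7.70 and 7.69) followed. The lowest were Bid (4.32 and 4.28), Bcl2 (2.99 and 3.25) and Bcl2l11 (1.81 and 1.98). Of all neighbours in this order, only Bax and Bbc3 in BxC had Poisson intervals that overlapped, 32.6 to 34.4 against 31.3 to 32.7. The members thus range from the 51.7th percentile of protein-coding genes (Bcl2l11 in BxC) to the 95.2nd (Bax in CxB).

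**Figure D2:**
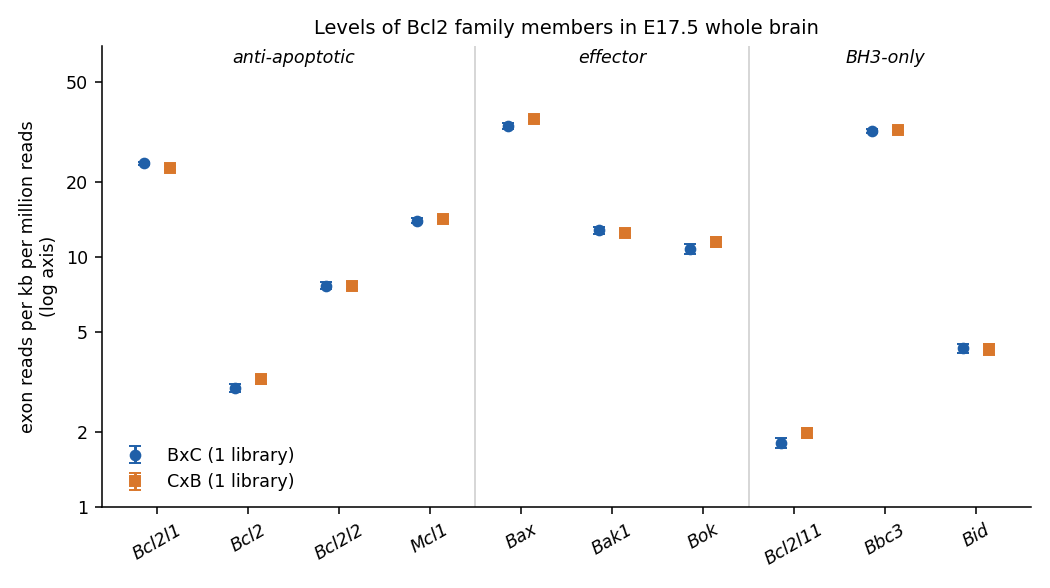
Level of each member in RPKM, exon reads per kb of exon per 1000000 reads (log axis) in BxC (circles) and CxB (squares), 1 library each, grouped by role; bars are 95% Poisson intervals of the read count, mostly smaller than the points. Each group holds members more than 2-fold apart, and the points of a member lie close together.

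This order depends on which exon bases are counted. Over coding exons only, Bcl2l1 came out highest, at 62.5 in BxC and 58.1 in CxB, above Bax at 48.5 and 48.3. The low end changed as well, with Bid at 9.32 and 9.55, Bcl2 at 7.71 and 7.56, Bcl2l2 at 7.16 and 6.90 and Bcl2l11 at 4.75 and 3.96 over coding exons, so that Bcl2l11 stayed lowest and Bcl2l2 came below Bid and Bcl2. By distinct positions, Bcl2l1 had rank 3 in BxC and rank 4 in CxB, where its level of 15.17 distinct positions per kb per 1000000 positions lay just under the 15.23 of Mcl1. On that scale Bbc3 stood at 18.5 in BxC and 22.7 in CxB, and Bcl2 at 4.84 and 5.22. Without the reads over its deepest base, Bcl2l1 would stand at 18.8 in BxC and 18.3 in CxB over all exons. That base, under 3022 reads in BxC and 2349 in CxB, lies in the coding sequence. The coding level and rank of Bcl2l1 thus hold these reads, and neither was computed without them.

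Among the anti-apoptotic members, Bcl2l1 had the highest level in both libraries over all exons. It had 14498 reads in BxC and 11840 in CxB over 4734 exon bases, and its level was 7.94 times that of Bcl2 in BxC and 7.02 times in CxB. By distinct positions it was 3.15 and 2.91 times that of Bcl2. That count takes each position once however many reads it holds, which lowers genes with many reads per position against others. Reads per position were 5.49 in BxC and 5.29 in CxB for Bcl2l1, and 2.18 and 2.19 for Bcl2. Bcl2, the founding member, first found at a translocation in lymphoma, had 2775 and 2561 reads over 7191 exon bases. Its depth was highest over coding bases (33.9 and 27.2 reads per base) and lower over the 3' UTR of 5086 bases (10.9 and 10.3). Its only annotated intron spans 168906 bases and was crossed by 10 reads in BxC and 5 in CxB. It shares 558 exon bases with D630008O14Rik, a noncoding gene on the other strand with 153 and 144 reads.

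Mcl1, a short-lived protein that progenitor cells rely on, had 6288 reads in BxC and 5418 in CxB. Its protective form includes a middle exon, and leaving that exon out gives a form known to promote death. Joins into and out of the middle exon had 25 and 62 reads in BxC and 20 and 65 in CxB. The join that skips it had 1 read in BxC and 0 in CxB, a share of 1.59% against the reads that leave the exon in BxC (interval 0.0402% to 8.53%) and 0% in CxB (up to 4.62% if 0 allows 3 reads). Against the reads that enter the exon, the share was 3.85% in BxC (0.0973% to 19.6%) and 0% in CxB (up to 15%). Skipping of the Mcl1 exon was not detectable above single reads at this depth.

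Bcl2l2, which codes for Bcl-w, had 4433 and 3767 reads. It shares 594 exon bases on the same strand with Gm20521, an annotated read-through gene that goes on into Pabpn1. The join from Bcl2l2 to Pabpn1 that defines this read-through runs from base 55503650 to base 55513685 of chromosome 14. It had 0 reads in both libraries, while the join to the last exon of Bcl2l2 itself had 16 and 8. Whether the authors' alignment searched the join to Pabpn1 is not known, so its 0 reads cannot show that the read-through was absent. The coding bases of Bcl2l2 were 1.54 times as deep as its intron bases in BxC (35.1 against 22.7 reads per base) and 1.76 times in CxB (28.5 against 16.2). For every other member, coding bases were at least 9.35 times as deep as intron bases in both libraries.

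**Figure D3:**
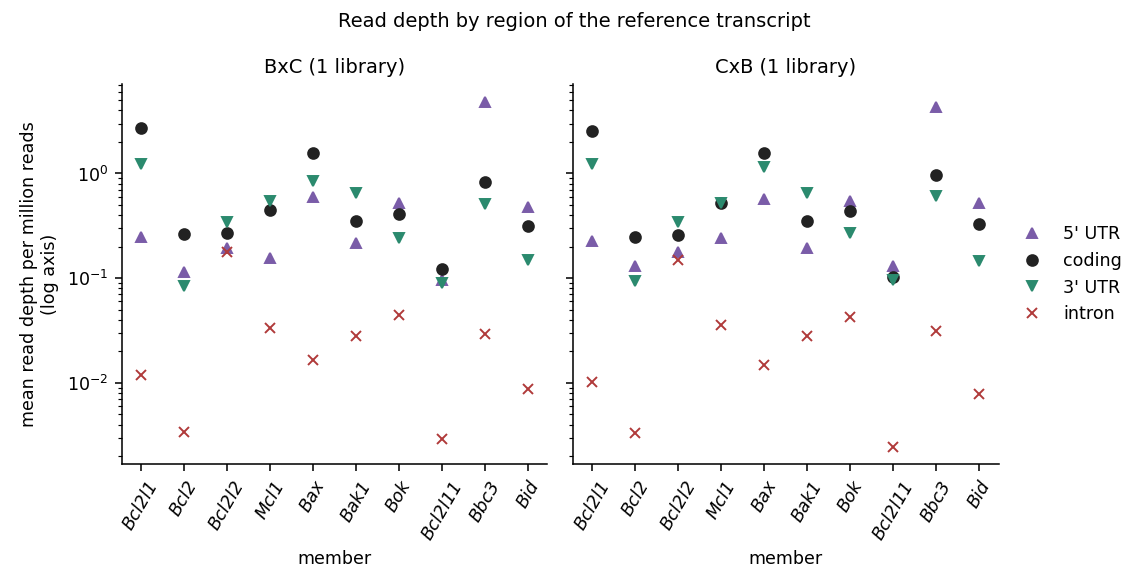
Mean read depth per 1000000 reads (log axis) over the 5' UTR, coding bases and 3' UTR of the reference transcript of each member and over its intron bases, BxC on the left and CxB on the right, 1 library each. Intron depth lies far below coding depth except for Bcl2l2, which has only 396 intron bases, and the 5' UTR of Bbc3 lies above its coding bases in both libraries.

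Of the effectors, Bax had 5784 reads in BxC and 5256 in CxB, Bak1 3970 and 3309, and Bok 1991 and 1804. Bax and Bak1 are the pore formers that most cells need for mitochondrial death, and Bok is a relative that can act without them. Bax stood above Bak1 by far in both libraries, and Bcl2l1 stood at 0.709 times the level of Bax in BxC and 0.637 times in CxB. Over coding exons only, with the reads over its deepest base counted, it stood at 1.29 and 1.20 times that of Bax. By distinct positions it stood at 0.481 and 0.422 times. Summed by role, effectors came to 57.1 and 59.8, anti-apoptotic members to 48.4 and 47.9, and BH3-only members to 38.1 and 38.7. The order of the first 2 sums depended on the count. Over coding exons only, anti-apoptotic members came to 90.2 and 87.5 and effectors to 72.1 and 73.3. By distinct positions effectors were again higher, at 54.9 and 60.4 against 44.1 and 45.0. The coding sum of anti-apoptotic members holds the reads over the deepest base of Bcl2l1. Neither that sum nor the coding level of Bcl2l1 over Bax was computed without them. All these sums are of mRNA levels and carry no information on protein.

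Bax was the best covered member by junctions, with 956 annotated junction reads in BxC and 891 in CxB, and it also had reads across a join that is not in the annotation. This join skips the second exon, 52 bases at chr7:52721590-52721641 of mm9, a length that is no multiple of a codon. The usual join from the first exon and the skipping join are printed to show what the reads had to match, with 15 bases of exon 1 and then 15 bases of the next exon in capitals.

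Bax exon 1 to exon 2: agcttgggagcggcgGGCCCACCAGCTCTG

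Bax exon 1 to exon 3: agcttgggagcggcgTTTCATCCAGGATCG

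The join of exon 1 to exon 2 had 408 reads in BxC and 402 in CxB. The join of exon 2 to exon 3 had 178 and 130. The skipping join had 43 reads at 12 positions in BxC and 32 reads at 16 positions in CxB. It was seen in both libraries, below the inclusion joins in each. Against the reads that leave exon 2, skipping came to 19.5% in BxC (Clopper-Pearson interval 14.5% to 25.3%) and 19.8% in CxB (13.9% to 26.7%). Against the reads that enter exon 2, it came to 9.53% (6.99% to 12.6%) and 7.37% (5.10% to 10.2%). The shares differ with the side because the inclusion joins themselves differ in depth. With at least 8 bases on each side of each join, the skip had 21 and 14 reads, and the shares were 11.7% and 10.7% against reads that leave exon 2 and 5.25% and 3.63% against reads that enter it. By distinct positions they were 24.5% and 28.1% on the leaving side and 16.4% and 24.2% on the entering side. On the sense strand alone the skip had 5 reads in BxC and 8 in CxB, or 17.9% and 33.3% on the leaving side and 1.66% and 2.56% on the entering side. The share of skipping thus ran from 1.66% to 33.3% over these ways of counting.

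At the end of exon 1 of Bax, 278 reads in BxC and 232 in CxB ran on into the first intron, against 379 and 372 spliced reads with the same minimum of 8 bases on each side. At the far end of that intron, only 13 and 14 reads ran into exon 2. The annotation holds a second Bax transcript that keeps this intron. Its 470 bases are therefore among the 1339 exon bases behind the level of Bax over all exons, but not behind its level over coding exons.

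Bak1 has a 20-base exon, at chr17:27158608-27158627 of mm9, minus strand. It is known as an exon of neurons, and its length is no multiple of a codon. It is printed with 5 intron bases on each side, the exon in capitals.

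Bak1 20-base exon: gccagGCCAGCAGCAACATGCACAGgtaat

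Joins into and out of this exon had 2 and 7 reads in BxC and 3 and 3 in CxB, and the join that passes it had 5 and 2. Reads of both forms were seen in both libraries. The share that passes it, against reads that leave the exon, was 41.7% in BxC (15.2% to 72.3%) and 2 of 5 reads in CxB (5.27% to 85.3%). Against reads that enter it, the share was 71.4% in BxC (29.0% to 96.3%) and again 2 of 5 reads in CxB. These intervals are too wide to order the forms. The 36-base reads had at most 2 aligned blocks, so a read into or out of this exon had to end within its 20 bases. A read that passes it had no such limit, so the shares lean toward passing by construction. Bak1 shares 357 exon bases with Ggnbp1 on the other strand. Without these bases its level was 14.0 in both libraries. Bok had 177 and 144 reads across its last intron and at most 44 across any other.

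**Figure D4:**
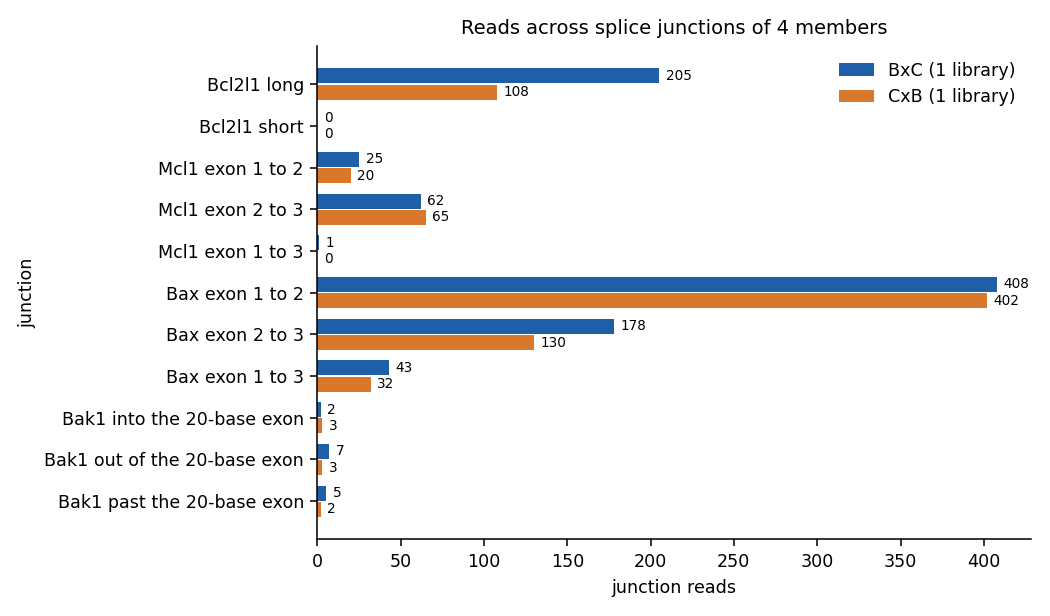
Number of reads across splice junctions of Bcl2l1, Mcl1, Bax and Bak1 in BxC and CxB, 1 library each, as bars from 0 with the count beside each bar. The short Bcl2l1 join has 0 reads beside 205 and 108 long ones, and the Bax join of exon 1 to exon 3 has 43 and 32.

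The BH3-only members lay at both ends of the order. Bbc3, which codes for Puma and is a classic target of p53, had 8287 reads in BxC and 7140 in CxB. Its 5' UTR of 261 bases was the deepest of the UTR, coding and intron regions of the reference transcripts, taken whole, with a mean of 625 reads per base in BxC and 471 in CxB, against 106 and 107 over its coding bases. The deepest base of Bbc3 was covered by 26.3% of its exon reads in BxC and 24.1% in CxB. Over coding exons only, the level of Bbc3 was 25.2 and 29.0, in place of 32.0 and 32.4.

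Bid, which caspase 8 cuts to link death receptors to mitochondria, had 1978 and 1666 reads, with each of its 5 reference introns crossed by at least 19 reads in BxC and 17 in CxB. It shares 628 exon bases with Bcl2l13 on the other strand. Without these bases its level was 4.66 in BxC and 4.76 in CxB.

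Bcl2l11, which codes for Bim and is known for its part in the death of neurons that lose trophic support, had 1873 reads in BxC and 1740 in CxB over 8029 exon bases, the longest exon sum of the family. Its known forms EL, L and S differ by internal stretches that splicing leaves out. The join inside the second exon that shortens EL, from base 127954492 to base 127954661 of chromosome 2, had 7 reads in BxC and 0 in CxB, and 14 and 5 reads ran on past that donor. The join from base 127954750 to base 127972821, which EL and the shortened form share, had 1 read in each library. No share of the forms can be given from such counts.

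A pair of further joins of Bcl2l11 that are not in the annotation lead to base 127986565. From base 127972930 there were 121 reads in BxC and 69 in CxB, and from base 127954492 there were 19 and 21. Few of them reached 8 bases on both sides, namely 12 and 4 of the former and 5 and 4 of the latter. The genome around this acceptor is a GT repeat and holds no AG before the join, as the 15 bases on each side show, with those after the join in capitals.

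Bcl2l11 acceptor: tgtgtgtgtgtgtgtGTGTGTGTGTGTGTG

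The annotation uses this acceptor in 1 transcript, with a nearby donor at base 127985861, and that join had 58 and 35 reads. Short read ends in such a repeat can be placed at more than 1 site, so these joins are given as alignments and not as transcripts. The donor ends at bases 127972930 and 127954492 lie in coding exons. Reads of the joins from them are therefore part of the levels of Bcl2l11 over all exons and over coding exons.

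Over the whole family, 37 of 57 annotated introns and 32 of 33 introns of the reference transcripts had reads in both libraries. The exception was the first reference intron of Bcl2l11, with 0 reads in BxC and 3 in CxB. Of 57 annotated introns, 56 had GT and AG at their ends on the reference genome.

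Between the crosses the members differed little. None of the 10 members was past 1.5-fold, where 169 of 15427 genes with at least 100 reads in each library were (1.10%). Of all genes 0.473% were past it with the higher level in CxB and 0.622% with the lower. A count of 0 of 10 is near this background and is not a result about the family. The log2 ratios of levels, CxB over BxC, ran from −0.06 (Bcl2l1) to 0.13 (Bcl2l11), and the middle 50% of all genes lay between −0.0957 and 0.0961 around a median of −0.0011.

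**Figure D5:**
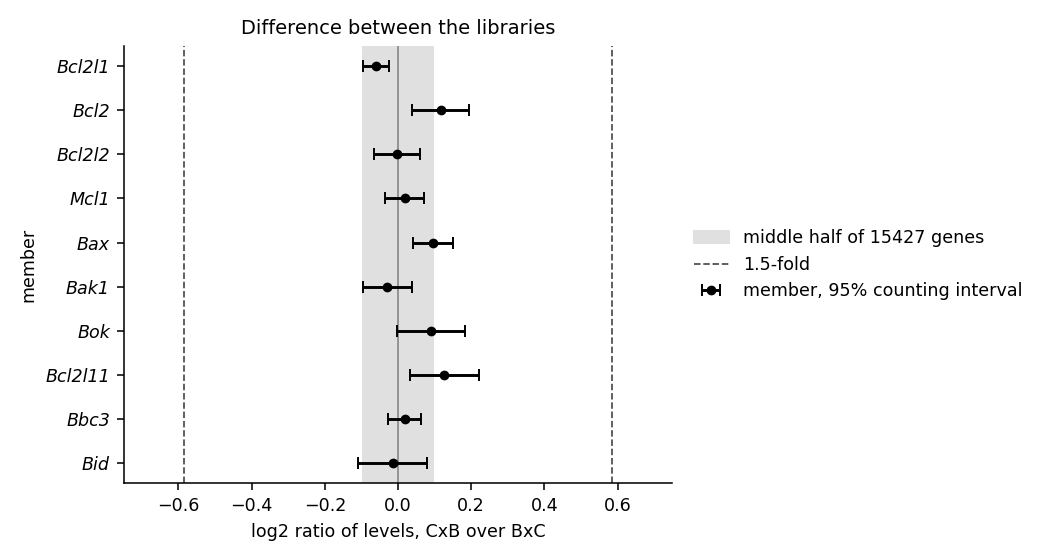
Log2 ratio of levels, CxB over BxC, for each member, with 95% intervals for counting error; grey spans the middle 50% of 15427 genes and dashed lines mark 1.5-fold. All 10 members lie between the dashed lines, from −0.06 for Bcl2l1 to 0.13 for Bcl2l11.

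For 4 members the counting interval left out 0. The share of all genes with such an interval was not computed, so this count is not a result about the family. Bcl2l1 was lower in CxB (log2 ratio −0.06, interval −0.09 to −0.02), and 66.3% of all genes had a larger ratio in size. Bcl2 (0.12, 0.04 to 0.20), Bax (0.09, 0.04 to 0.15) and Bcl2l11 (0.13, 0.03 to 0.22) were higher in CxB, and 42.3%, 50.4% and 39.3% of genes had larger ratios. None of these differences can be set against a spread between animals. Over coding exons only, the log2 ratios of Bcl2, Bax and Bcl2l11 had the other sign (−0.03, −0.01 and −0.26). No counting interval was computed for these coding ratios, which rest on fewer reads. Those of Bcl2 and Bax lie close to 0, so their sign is not a result. The log2 ratio of Bcl2l1 was −0.11 over coding exons and −0.01 by distinct positions. The coding count of Bcl2l11 holds reads of its joins into the GT repeat, and its ratio was not computed without them. For Bcl2l2, Mcl1, Bak1, Bok, Bbc3 and Bid the interval held 0, and the bound farthest from 0 was 0.18, for Bok. These intervals do not cover the choice of count. Over coding exons only the ratio was 0.23 for Mcl1, 0.20 for Bbc3 and 0.08 for Bak1, and by distinct positions it was 0.30 for Bbc3. The ratio of Bax by distinct positions was 0.18.

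For listed markers of the red blood cell lineage, which is known to need Bcl2l1, the summed level was 340 in BxC and 274 in CxB, and the log2 ratio of the sums was −0.31. Neuron markers had a ratio of sums of −0.12, with Tubb3, the most abundant of them, at −0.21, Syt1 at −0.0012, Stmn2 at 0.05, Snap25 at 0.05 and Dcx at 0.13. Choroid plexus markers had a ratio of sums of 0.15, with Ttr at 0.15, Folr1 at 0.02 and Kl at −0.09. The part of these markers in the member ratios was not tested.

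Other genes of the pathway were taken from a list of 53, all matched. Of these, 42 had at least 100 reads in each library, and 0 were past 1.5-fold, where 1.10% of all genes were, which is no result about the list. Their median log2 ratio was 0.00056 (interval −0.04 to 0.05). By level, Ywhaz, a 14-3-3 protein that holds phosphorylated Bad, led at 96.5 in BxC and 110.7 in CxB. Vdac1, a channel of the outer mitochondrial membrane, stood at 53.2 and 53.3. Both levels lie above those of all 10 members.

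The largest log2 ratios in the list were those of Pmaip1 (0.53, interval 0.17 to 0.90, 117 and 144 reads), Bnip3l (0.31) and Vdac3 (0.30), and the lowest those of Birc5 (−0.26), Bcl2l12 (−0.26) and Bnip3 (−0.24). Pmaip1 codes for the BH3-only protein Noxa, and Birc5 for Survivin, which dividing cells make. No read was placed on Bcl2l10, Bcl2a1a, Bcl2a1c or Bcl2a1d, which allows up to 0.0233 reads per 1000000 reads in BxC and 0.0273 in CxB. The Bcl2a1 genes are near-identical copies, and reads shared between them are lost when only unique alignments are kept.

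By level, the protein-coding genes nearest to Bcl2l1 in both libraries were Fis1, Ephb1, Npc2, Ints1 and Dld, each within 0.0134 of it in log2 distance over these 2 libraries. Fis1, at 23.8 and 22.7, sits on the outer mitochondrial membrane.

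The position of the members was set against the authors' catalog of 128 known imprinted genes. Bcl2l1 lay nearest to a catalog entry, 60.5 kb from H13, and of the others the nearest was Bcl2l11, 5.51 Mb from Gatm. No entry lies on the chromosome of Mcl1. The distance of Bcl2l1 is measured from a far last exon of 1 annotated transcript, at chr2:152593052-152593195, which had 5 reads in BxC and 0 in CxB. Among protein-coding genes within 100 kb of Bcl2l1, H13 had a log2 ratio of 0.03 and Mcts2, a gene inside H13, of −0.03. Id1, which holds back neuronal differentiation and lies 29.9 kb away, had 1902 reads in BxC and 984 in CxB and a log2 ratio of −0.72 (−0.83 to −0.61), past 1.5-fold. Tpx2, a spindle protein gene 16.2 kb away, had a ratio of −0.26. Cox4i2 (88 and 75 reads) and Mylk2 (32 and 7 reads) were under the read minimum. Bcl2l1, which lies between Id1 and Tpx2, stood at −0.06, and its interval overlapped neither of theirs.

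The members also differed in base composition, which the choice of genes did not use. Exon GC content was 64.6% for Bbc3, 61.8% for Bax and 60.9% for Bok, against a median of 49.1% over protein-coding genes. Bcl2l1 stood at 53.9%, and Bcl2 (46.3%) and Bcl2l11 (46.9%) were lowest. The members lowest in GC were the lowest in level over all exons. Over coding exons only, Bcl2l2, at 52.7% GC, lay below Bcl2 in both libraries. On that count, with the reads over its deepest base included, Bcl2l1 was the highest in level. The part of GC content in either order was not tested.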

How the data were processed

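The authors aligned 36-base single-end reads with Novoalign, converted the alignments to mm9 coordinates, kept uniquely aligned reads and deposited them per library with a whole-number count on each line; versions are not given in the sources used here. Which of the alignments they describe was deposited is not stated. The count was read as the number of identical reads, a meaning taken from the values. Of the catalog, the deposited start and end of each entry were used. 0 columns could not be assigned to a library.

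Reads of both strands were counted over a gene of GENCODE vM1 if any aligned base fell in its exons. Levels (RPKM) are reads per kb of the union of exons per 1000000 reads of the library. Ratios were taken over genes with at least 100 reads in each library. Intervals are exact Poisson, conditional binomial or Clopper-Pearson intervals at 95%, and a count of 0 was taken to allow 3 reads. The reference transcript of a gene is the coding transcript with a CCDS, where there is one, with the longest coding sequence, then the most introns, then the longest exons. Junctions were taken from reads with 2 aligned blocks, and annotated gaps of up to 10 bases were not counted as introns. Sequences were read from the mm9 genome.

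The members and gene lists were chosen with earlier results of these data known. Named besides the members were, by rule, the 3 listed pathway genes highest in level, the 3 highest and 3 lowest in ratio, those without a read, the 5 genes nearest to Bcl2l1 in level, its protein-coding neighbours within 100 kb, genes that share exon bases with a member and the nearest catalog entry. Gatm, Alb, Apaf1, Pabpn1 and single marker genes, and the joins that are not in the annotation, were named outside this rule. Some items that the rule or the lists name are not reported here. The alternatives were distinct positions, sense reads, coding exons, other scalings, exon bases of the member alone, other minimums and junction reads with at least 8 bases on each side. The order of levels, the sums by role, the level of Bcl2l1 over Bcl2 and Bax and the reads over the deepest base were examined after seeing the data. The calculations were tested on simulated data and made in Python 3.11.15 with numpy 2.4.6, scipy 1.17.1, pandas 2.3.3, numba 0.67.0 and matplotlib 3.10.9.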

Additional observations from a re-analysis of the deposited data

Results flagged for a closer look

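Some junctions that are not in the annotation had more than 3 reads in both libraries. The Bax join that skips exon 2, from base 52722112 to base 52721493 of chromosome 7, had 43 reads in BxC and 32 in CxB, and its intron starts with GT and ends with AG on the reference genome. The Bcl2l11 joins to base 127986565 of chromosome 2 had 121 reads in BxC and 69 in CxB from base 127972930, and 19 and 21 from base 127954492. Both end in a GT repeat without an AG, and most of their reads had fewer than 8 bases on 1 side. There are no control samples for these joins.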

How the results depend on the processing

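No paired analysis was possible because each cross has 1 library. The Bcl2l1 log2 ratio of −0.06 was −0.0070 by distinct positions and −0.11 over coding exons only, both outside its counting interval, and the cause was not tested. Sense reads kept it within that interval. Both other scalings did so too, at −0.058 and −0.065, but they shift all genes alike. Bcl2l1 shares no exon bases with another gene, so leaving out such bases could not change its ratio. The count of members past 1.5-fold, the count of members with at least 100 reads and the pathway median stayed within the limits set for them under each alternative tried for them, which for the fold of 2 and the minimum of 10 reads follows from the counts themselves. The long share of Bcl2l1 had to stay at 100% under each alternative, since no short read was there to count, so these say nothing about its stability. Of the ratios of all 10 members, 7 moved past their counting interval over coding exons only and 3 by distinct positions, and 0 did under the other settings. Of those settings, the scalings shift all members alike, and leaving out shared exon bases can change only Bcl2, Bcl2l2, Bak1 and Bid. No counting interval was computed for the alternative ratios themselves, so a move can include their own counting error. All 20 levels moved over coding exons only and 19 of 20 by distinct positions, and all 20 by sense reads, which are fewer by construction. Levels by distinct positions are scaled to positions and not to reads, so their moves against intervals of read levels say little. Of the shares at splice choices, 35 moved and 19 did not with at least 8 bases on each side. By distinct positions 19 moved and 35 did not, and on the sense strand 18 moved and 36 did not. Many of these shares are complements or hold the same join seen from both ends, so they are not separate results. Limits are set by 1 library per cross, by identical reads of unknown origin, by the low number of junction reads and by the unknown set of joins that the authors' alignment searched.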
